A study of Nannochloropsis oceanica with 15 samples.

Results

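The results cover 3 genes of Nannochloropsis oceanica IMET1, a unicellular marine alga, taken by their listed identifiers from a table of 10434 genes. NO12G00370 and NO17G00440 are annotated as plasma membrane proton ATPases, and NO19G01860 as a proton-pumping membrane pyrophosphatase. The 3 genes were picked with their levels over the 5 times already known, so these levels and the differences between times are given as descriptions, without a p-value. RNA was sequenced at times labelled 0, 6, 12, 24 and 48 h of an experiment in which cells grown under continuous light were washed in seawater and put into f/2 medium lacking phosphate, with 3 libraries per time (replicates a, b and c) and 15 in all. All 15 libraries, those of 0 h included, carry the label of phosphate deprivation and the strain IMET1. None is labelled as the complete f/2 culture that the protocol also mentions, so time in the new medium, washing and lack of phosphate cannot be told apart. Whether the 0 h cells, the baseline of every difference below, were taken before or after washing and transfer is not stated. Whether a letter marks the same flask at each time is not stated, so the spread given here is that between libraries, which may be partly technical.

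Plasma membrane proton ATPases are P-type pumps: they use ATP to move protons out of the cell, and in plants and fungi the resulting gradient drives the uptake of ions, including phosphate, through coupled carriers. Membrane pyrophosphatases split pyrophosphate, a by-product of the synthesis of nucleic acids, proteins and polysaccharides, and use its energy to pump protons into the vacuole or other compartments. In plants, proton pumping with pyrophosphate is described as an alternative to pumping with ATP. These roles come from other species, and the names used here are homology annotations of the deposited table.

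The annotation columns of the table bear out the names of the 3 genes. NO12G00370 and NO17G00440 have the same best Swiss-Prot hit, ATPase 1 of the plasma membrane type of Arabidopsis (AHA1), and the same protein domains, with the E1-E2 ATPase domain first. NO19G01860 carries the domain of proton pyrophosphatases, and its best hit is the pyrophosphate-energized membrane proton pump 3 of Arabidopsis (AVPL2). All 3 passed the filter on low counts, with at least 1022 counts per library for NO19G01860, 8766 for NO17G00440 and 22413 for NO12G00370. Total counts per library lay between 16649421 and 26349336. The correlation of log2 CPM between libraries, across genes that are not independent replicates, was 0.908 to 0.93 within times and 0.771 to 0.914 between times.

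NO12G00370 was among the most abundant transcripts of the alga at the start and stood lowest at 12 h. Levels are given in CPM, counts scaled to a common library total (TMM scaling), and allow no statement on RNA per cell: a smaller share of the RNA and less RNA per cell cannot be told apart. The 0 h libraries had 8568, 8799 and 8464 CPM in replicates a, b and c. At 6 h the values were 3610, 3403 and 3598 CPM, so the 3 libraries lay close together at both times. At 12 h they were 1842, 1493 and 1400 CPM, all below every library of any other time. At 24 h the libraries had 5760, 4525 and 5250 CPM, and at 48 h 4495, 4785 and 4688 CPM. The libraries of 24 h and 48 h overlapped, and those of every other pair of times did not. The order of the means was 0 h, 24 h, 48 h, 6 h and 12 h, in which only the neighbours 24 h and 48 h overlapped. The share of all counts taken by this gene was 0.135% to 0.182% at 12 h, against 0.807% to 0.831% at 0 h.

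The differences of NO12G00370 from 0 h, as log2 fold changes ± SE from the edgeR fit of all 15 libraries, were -1.28 ± 0.10 at 6 h, -2.45 ± 0.11 at 12 h, -0.73 ± 0.10 at 24 h and -0.89 ± 0.10 at 48 h. Between successive times they were -1.16 ± 0.10 for 12 h against 6 h, 1.71 ± 0.10 for 24 h against 12 h and -0.15 ± 0.10 for 48 h against 24 h. The mean at 12 h was 0.183 times that of 0 h, and the mean at 24 h was 3.28 times that of 12 h. Ranked by FPKM (the deposited value, scaled to gene length and library depth) among the 10434 genes, it held place 28 at 0 h, 56 at 6 h, 226 at 12 h, 42 at 24 h and 48 at 48 h.

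NO17G00440, the gene with the same annotation, stood highest at 24 h. It had 512, 526 and 504 CPM at 0 h in replicates a, b and c, and 596, 553 and 491 CPM at 6 h. The libraries of 12 h had 703, 598 and 586 CPM, all above those of 0 h but not above those of 6 h. At 24 h the values were 1455, 1200 and 1353 CPM, above every library of the other times. At 48 h they were 850, 889 and 880 CPM, below 24 h and above the 3 earlier times. From low to high the order of the means was 0 h, 6 h, 12 h, 48 h and 24 h. The neighbours 0 h and 6 h, and 6 h and 12 h, overlapped. The log2 fold changes against 0 h were 0.09 ± 0.09 at 6 h, 0.29 ± 0.09 at 12 h, 1.38 ± 0.09 at 24 h and 0.77 ± 0.09 at 48 h. For 24 h against 12 h the value was 1.09 ± 0.09, and for 48 h against 24 h it was -0.61 ± 0.09.

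NO19G01860, the membrane pyrophosphatase, stood highest at 12 h, the time at which NO12G00370 stood lowest. The 0 h libraries lay close together, at 59.6, 60.6 and 59.8 CPM in replicates a, b and c. At 6 h they had 177, 171 and 135 CPM, with replicate c below the other two. At 12 h they had 301, 276 and 297 CPM, above all libraries of the other times. At 24 h they had 99.1, 109 and 115 CPM and at 48 h 124, 98.8 and 120 CPM, ranges that overlap each other and lie between those of 0 h and 6 h. The order of the means from low to high was 0 h, 24 h, 48 h, 6 h and 12 h. The log2 fold changes against 0 h were 1.42 ± 0.11 at 6 h, 2.28 ± 0.11 at 12 h, 0.85 ± 0.11 at 24 h and 0.93 ± 0.11 at 48 h. For 12 h against 6 h the value was 0.86 ± 0.11, for 24 h against 12 h -1.44 ± 0.11, and for 48 h against 24 h 0.08 ± 0.11. At 48 h its mean was still 1.90 times that of 0 h.

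**Figure D1:**
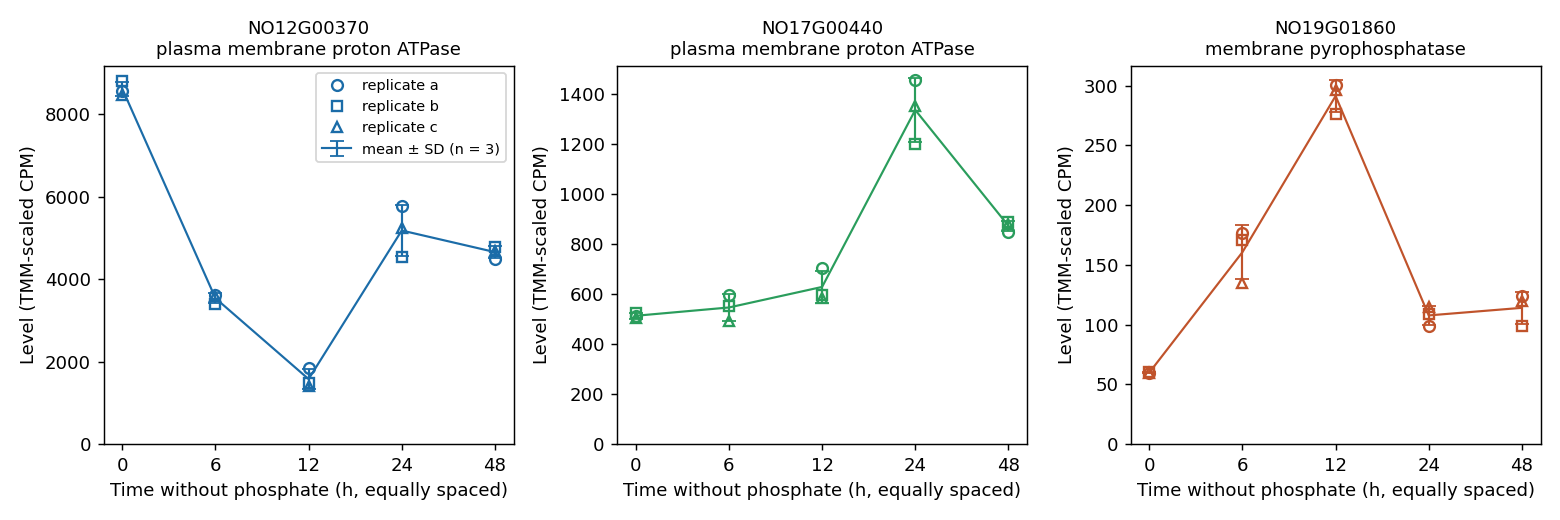
Level (TMM-scaled CPM, vertical axes that start at 0 and differ between panels) of the 3 genes at each time (horizontal axis, hours, equally spaced); symbols are the 3 libraries, and lines join the means with SD bars (n = 3). NO12G00370 is lowest at 12 h (1400 to 1842 CPM), NO17G00440 highest at 24 h (1200 to 1455 CPM) and NO19G01860 highest at 12 h (276 to 301 CPM).

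Over the 15 libraries, the log2 CPM of NO12G00370 and NO19G01860 had a Pearson correlation of -0.98 (Spearman -0.94), whereas NO17G00440 had 0.11 with NO12G00370 (Spearman 0.04) and -0.04 with NO19G01860 (Spearman 0.03). These are descriptions, since libraries of a time share that time and the genes were picked with their levels known. Genes of other annotation were as strongly opposite to NO12G00370, such as NO08G03280 (Pearson -0.991). At 12 h against 0 h the libraries of 3 of 3 genes did not overlap, 2 higher and 1 lower, where 70.9% of the 9321 tested genes showed no overlap. At 6 h this held for 2 of the 3 genes (61.3% of tested genes), at 24 h for 3 (61.3%) and at 48 h for 3 (62.4%). For successive times it held for 2 genes at 12 h against 6 h (53.7% of tested genes), 3 at 24 h against 12 h (62.5%) and 1 at 48 h against 24 h (43.3%). The genes were chosen on these levels, so nothing is read from these counts.

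Levels of different genes were compared per length, in FPKM. At 0 h NO12G00370 had 1288 ± 22.6 FPKM, NO17G00440 had 91.6 ± 1.80 FPKM and NO19G01860 had 15.6 ± 0.081 FPKM (SD, n = 3 each). At 12 h the values were 238 ± 43.3, 113 ± 15.3 and 75.8 ± 4.29 FPKM in the same order of genes. At 24 h they were 829 ± 87.2, 255 ± 20.7 and 30.0 ± 2.20 FPKM. The FPKM ratio of NO12G00370 to NO17G00440 within a library was 2.00 to 2.20 at 12 h, against 14 to 14.1 at 0 h. It was 5.08 to 6.14 at 6 h, 3.16 to 3.32 at 24 h and 4.43 to 4.51 at 48 h. NO12G00370 thus stayed the more abundant of the 2 ATPase transcripts in all 15 libraries.

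The table held 3 further genes annotated as plasma membrane ATPases and listed here with the proton pumps. NO12G00380 and NO12G00390, numbered next to NO12G00370, share its best hit, and NO03G05580 resembles the plasma membrane ATPase PMA1 of the green alga Dunaliella bioculata. A second hit of NO03G05580 is named only as a cation-transporting ATPase, so its label as a proton pump is less sure. At 12 h against 0 h, the edgeR test called 1 of the 3 lower and 0 higher, where 64.8% of tested genes were called in either direction, 32.7% lower and 32.1% higher. The gene called was NO12G00380, with 618, 686 and 463 CPM at 12 h, against 1340, 1573 and 1525 CPM at 0 h (log2 fold change -1.33 ± 0.31, edgeR adjusted p = 0.0025). All its 12 h libraries lay below those of 0 h. NO12G00380 was also the 1 gene of the 3 called higher at 24 h against 12 h, a call made for 27.2% of tested genes (log2 fold change 1.63 ± 0.32, edgeR adjusted p = 0.00089). At 48 h against 24 h the 1 gene called higher was NO03G05580, a call made for 12.3% of tested genes (0.62 ± 0.20, edgeR adjusted p = 0.046). Its libraries had 137, 81.1 and 73.4 CPM at 48 h in replicates a, b and c, against 66.5, 58.0 and 65.3 CPM at 24 h. In FPKM its libraries of these times overlapped, at 27.7 to 35.9 and 26.1 to 29.3 FPKM, and replicate a was the lowest of 48 h. NO03G05580 averaged 66.4 ± 5.98 CPM at 12 h and 73.0 ± 4.89 CPM at 0 h (SD, n = 3 each; edgeR adjusted p = 0.57), and its libraries overlapped. NO12G00390 had 137, 165 and 402 CPM at 12 h, against 95.3, 164 and 115 CPM at 0 h, and was not called (0.91 ± 1.42, edgeR adjusted p = 0.60). At 6, 24 and 48 h against 0 h, 0 of the 3 genes were called by edgeR (50.3%, 46.0% and 49.3% of tested genes were called in either direction). At 6 h, NO12G00380 had an edgeR adjusted p of 0.06, and DESeq2 and the fit of only the 6 libraries compared each called 1 of the 3. At 24 h the fit of only the 6 libraries called 2, and at 48 h leaving out 48 h replicate b called 1 and leaving out 48 h replicate c called 2.

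In 1 library the counts of NO12G00380 and NO12G00390 stood apart. At 48 h, NO12G00390 had 27731, 1 and 30642 counts in replicates a, b and c, while NO12G00380 had 28160, 78763 and 25738. Replicate b thus had the lowest count of the first gene and the highest of the second. Summed over both genes, the 48 h libraries had 3284, 3798 and 2981 CPM. The deposited counts divided by the FPKM and by the library total, a relative measure (common arbitrary unit) that follows the length used for a gene, ranged from 3.73 to 9.72 over the libraries for NO12G00380 and from 5.86 to 12.3 for NO12G00390. For NO12G00370 and NO17G00440 the ranges were 6.25 to 6.73 and 5.24 to 5.64. For NO03G05580, which is not numbered next to them, the range was 2.27 to 4.75, so FPKM and counts of this gene also moved apart between libraries, which touches FPKM sums below. How reads were divided between these like-annotated genes was not tested, so separate levels of NO12G00380 and NO12G00390 are uncertain, and a part of the reads of NO12G00370 could be affected as well.

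With their counts summed into 1 row, an alternative added after the values were seen, NO12G00380 and NO12G00390 together had 755, 851 and 864 CPM at 12 h, against 1435, 1737 and 1640 CPM at 0 h. The sum was lower at 6 h than at 0 h (log2 fold change -0.78 ± 0.14, edgeR adjusted p = 0.00043) and at 12 h (-0.96 ± 0.14, edgeR adjusted p = 5.2e-05). It was higher at 24 h (0.45 ± 0.14, edgeR adjusted p = 0.017) and at 48 h (1.06 ± 0.14, edgeR adjusted p = 5.0e-05). NO12G00370 stood below its 0 h level at both of these late times. With all 3 genes numbered next to each other summed, the log2 fold changes against 0 h were -1.19 at 6 h, -2.09 at 12 h, -0.47 at 24 h and -0.35 at 48 h.

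**Figure D2:**
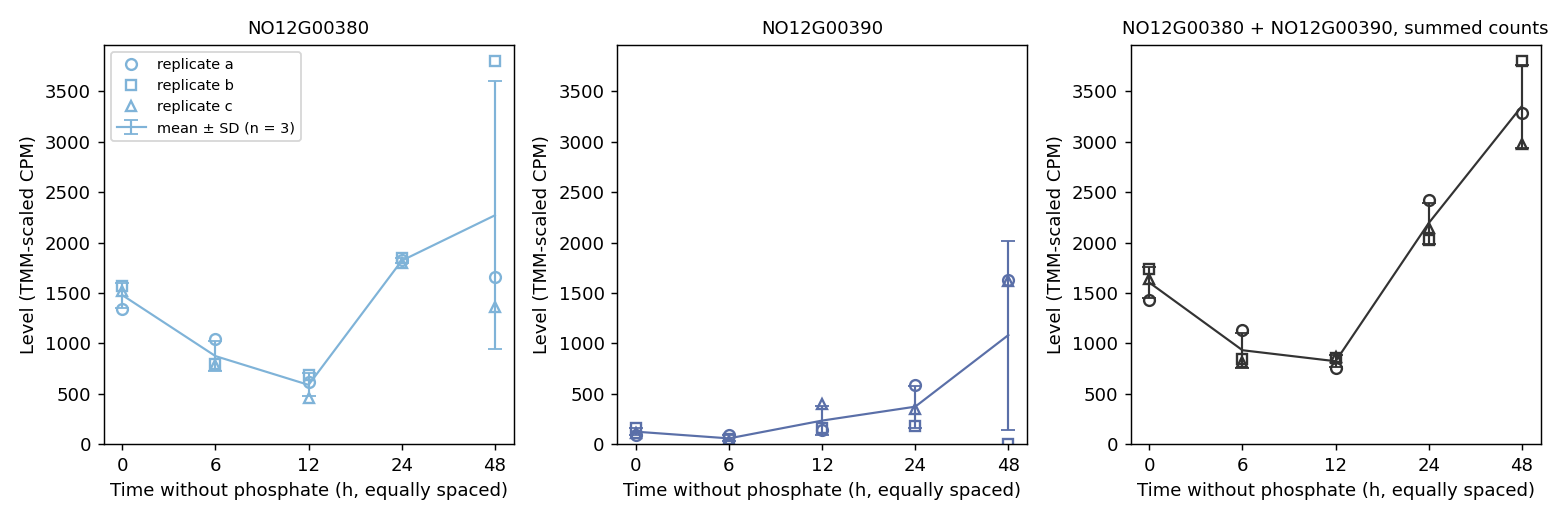
Level (TMM-scaled CPM, shared vertical scale from 0) of NO12G00380, NO12G00390 and their summed counts at each time (hours, equally spaced); symbols are libraries, and lines join the means with SD bars (n = 3). At 48 h replicate b is the highest library for NO12G00380 and has 1 count for NO12G00390, while the 3 sums lie between 2981 and 3798 CPM.

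The 5 genes annotated as plasma membrane ATPases, with NO03G05580 the least sure proton pump, were also summed. Together they had 1726 ± 47.9 FPKM at 0 h, 927 ± 45.0 FPKM at 6 h, 506 ± 58.2 FPKM at 12 h, 1463 ± 164 FPKM at 24 h and 1372 ± 27.4 FPKM at 48 h (SD, n = 3 each). The lowest summed level was therefore at 12 h, 457 to 570 FPKM, against 1678 to 1773 FPKM at 0 h. NO12G00370 made up 43.7% to 49.9% of this sum at 12 h, against 72.9% to 75.8% at 0 h. NO17G00440 made up 21.8% to 22.7% at 12 h, against 5.19% to 5.40% at 0 h. Its own level was 113 ± 15.3 FPKM at 12 h and 91.6 ± 1.80 FPKM at 0 h, so this larger share went mostly with the smaller sum. The level of NO17G00440 was highest at 24 h. At 24 h the share of NO17G00440 was 17.0% to 18.2% and at 48 h 11.4% to 12.4%. The share of NO12G00390 at 48 h was 0.00029% to 19.7%, the widest range of the 5 genes, with replicate b at its low end.

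**Figure D3:**
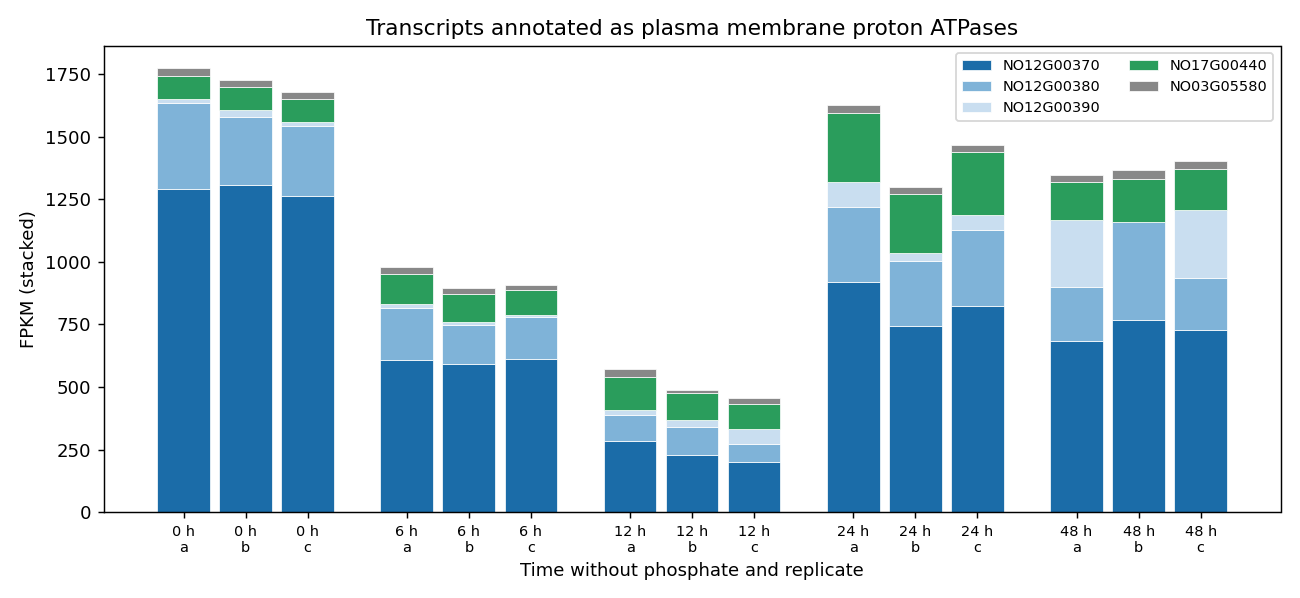
Deposited FPKM of the 5 genes annotated as plasma membrane ATPases (NO03G05580 less surely a proton pump), stacked for each of the 15 libraries (time and replicate on the horizontal axis). The stacks are lowest at 12 h (457 to 570 FPKM). NO17G00440 takes 21.8% to 22.7% of these smaller stacks, while its own FPKM is highest at 24 h.

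A second gene, NO13G01250, carries the domain of proton pyrophosphatases and resembles the vacuolar proton pump of mung bean, the pump that acidifies plant vacuoles. It was looked up by its annotation after values had been seen, as its description escaped the list of pyrophosphatases. It had 1187, 1084 and 791 CPM at 6 h, against 400, 387 and 370 CPM at 0 h (1.40 ± 0.12 on the log2 scale, edgeR adjusted p = 1.8e-06). All libraries of 6 h lay above those of 0 h, and replicate c was the lowest of its time, as for NO19G01860. The level was also higher than at 0 h at 12 h (1.06 ± 0.12, edgeR adjusted p = 8.8e-06) and 24 h (1.12 ± 0.12, edgeR adjusted p = 1.7e-05). At 48 h the difference was 0.30 ± 0.12 and did not pass the test (edgeR adjusted p = 0.062). NO13G01250 was called lower at 12 h than at 6 h (-0.34 ± 0.12, edgeR adjusted p = 0.038), although its libraries of these times overlapped. NO19G01860 stood higher at 12 h than at 6 h. NO13G01250 was the more abundant per length at every time, with an FPKM ratio to NO19G01860 of 3.42 to 3.98 at 12 h, against 8.29 to 8.99 at 0 h. The ratio was 9.69 to 11.6 at 24 h and 5.45 to 5.79 at 48 h.

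**Figure D4:**
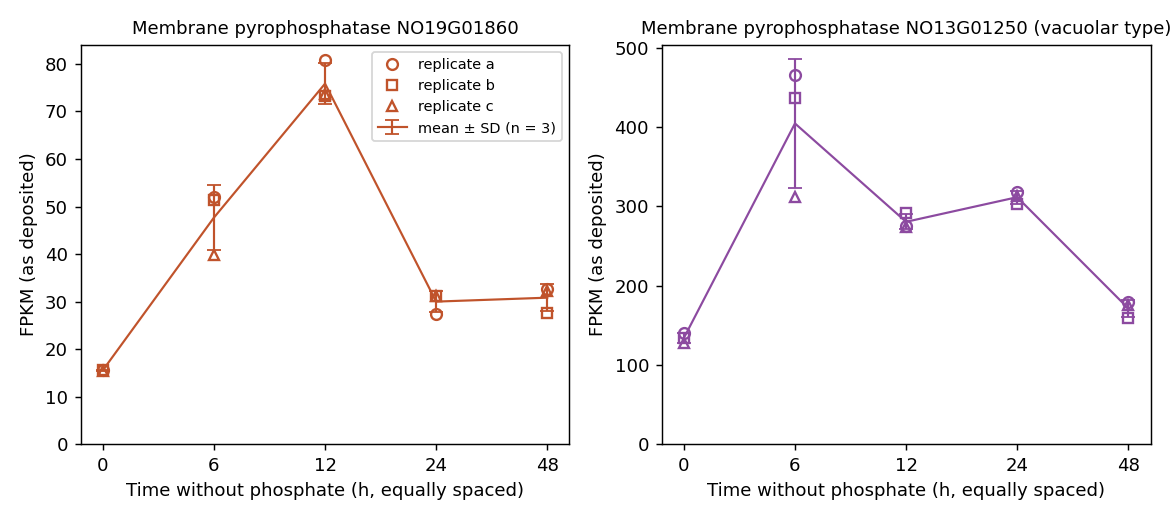
Deposited FPKM (vertical axes from 0, different scales) of the 2 genes with a proton pyrophosphatase domain at each time (hours, equally spaced); symbols are libraries, and lines join the means with SD bars (n = 3). NO19G01860 is highest at 12 h (73.1 to 80.8 FPKM), whereas the mean of NO13G01250 is highest at 6 h (405 FPKM).

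Of 7 further genes annotated as pyrophosphatases, 3 are soluble inorganic pyrophosphatases and the others act on nucleotides or other compounds, as annotated. Among the 7, the edgeR test of 12 h against 0 h called 1 higher and 2 lower, with a median log2 fold change of -0.27, against -0.04 over all tested genes. The gene called higher was NO18G00370, a soluble inorganic pyrophosphatase, which splits pyrophosphate without pumping. It had 100.1, 90.3 and 91.2 CPM at 12 h, against 43.4, 44.1 and 42.5 CPM at 0 h (log2 fold change 1.12 ± 0.06, edgeR adjusted p = 2.5e-08). Its level at 24 h, 44.5 ± 3.20 CPM, overlapped that of 0 h and was not called (edgeR adjusted p = 0.67). The 2 lower genes included a CDP-diacylglycerol pyrophosphatase (NO03G04690), of phospholipid metabolism and not a pyrophosphate-splitting enzyme (-0.90 ± 0.15, edgeR adjusted p = 0.00016). NO12G01220, annotated as a chloroplast pyrophosphatase and picked by that annotation after values were seen, averaged 294 ± 95.9 CPM at 12 h and 353 ± 86.5 CPM at 0 h and was not called (edgeR adjusted p = 0.38). In the other comparisons with 0 h, 1 rose and 0 fell at 6 h, 0 rose and 1 fell at 24 h, and 2 rose and 1 fell at 48 h. For 6 h, 24.7% of tested genes were higher and 25.7% lower, for 24 h 25.2% and 20.8%, and for 48 h 26.3% and 23.0%. The single call of 24 h was lost without 0 h replicate a or b or any 1 of the 3 libraries of 24 h, and without 48 h replicate a the count of 48 h was 1. The fit of only the 6 libraries compared called 2 at 6 h and 2 at 24 h.

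The list of enzymes of sugar and pyruvate metabolism that use or make pyrophosphate held 7 genes, 2 of them annotated as pyruvate, phosphate dikinase. By the edgeR test against 0 h, 2 rose and 3 fell at 12 h (median -0.39), 1 rose and 4 fell at 6 h (median -0.59, against -0.03 over all tested genes), 1 rose and 2 fell at 24 h, and 3 rose and 2 fell at 48 h. Of all tested genes, 50.3% were called at 6 h, 64.8% at 12 h, 46.0% at 24 h and 49.3% at 48 h, either way. Split by direction, the shares were 24.7% higher and 25.7% lower at 6 h, and 32.1% and 32.7% at 12 h. For 24 h they were 25.2% higher and 20.8% lower, and for 48 h 26.3% and 23.0%. Without 0 h replicate c, or with only the 6 libraries compared, the count of 6 h was 3. The beta subunit of the pyrophosphate-dependent phosphofructokinase (NO09G03890), which phosphorylates fructose 6-phosphate with pyrophosphate in place of ATP, had 345, 340 and 300.1 CPM at 12 h, against 35.8, 50.8 and 48.0 CPM at 0 h. The lowest library of 12 h stood far above the highest of 0 h (2.87 ± 0.24 on the log2 scale, edgeR adjusted p = 5.9e-07). It was not called at 6 h (0.40 ± 0.23, edgeR adjusted p = 0.17), a time at which NO19G01860 already stood higher than at 0 h. UDP-sugar pyrophosphorylase NO02G03080, which releases pyrophosphate as it makes activated sugars, fell to 108 ± 6.09 CPM at 12 h, against 406 ± 8.07 CPM at 0 h (SD, n = 3 each; log2 fold change -1.91 ± 0.09, edgeR adjusted p = 4.7e-09). Genes of the same name differed. NO01G01090 averaged 70.2 ± 12.2 CPM at 12 h and 56.4 ± 33.4 CPM at 0 h, with overlapping libraries. NO01G01100 averaged 18.2 ± 2.06 CPM at 12 h and 29.2 ± 2.51 CPM at 0 h.

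The vacuolar proton ATPase, a rotary pump of many subunits that acidifies the vacuole with ATP, had 10 tested genes. At 12 h, 6 were higher and 2 lower than at 0 h (median log2 fold change 0.22), and at 6 h 2 were higher and 4 lower (median -0.12). Of all tested genes, 32.1% were higher and 32.7% lower at 12 h, and 24.7% were higher and 25.7% lower at 6 h. The count of 6 h was 3 without any 1 library of 0 h and without 6 h replicate b. At 12 h against 6 h, 8 were higher and 0 lower, where 23.5% of tested genes were higher and 23.3% lower. Among the called genes of this complex the 16 kDa proteolipid (NO14G03000), part of the rotor ring in the membrane, had the highest log2 fold change at 12 h, with 968 ± 39.4 CPM at 12 h and 545 ± 7.10 CPM at 0 h (0.83 ± 0.06, edgeR adjusted p = 2.6e-07). Subunit C (NO10G00460), of the stalk region, was the lowest (-0.39 ± 0.08, edgeR adjusted p = 0.0010). At 24 h 5 rose and 1 fell, where 25.2% of tested genes rose and 20.8% fell, and at 48 h 4 rose and 0 fell, where the shares were 26.3% and 23.0%. The gene annotated as catalytic subunit A (NO02G03720) had 0 counts in all 15 libraries, which allows up to 3 counts in each (counting error only), and was not tested.

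The F-type ATP synthase, which runs in the opposite direction and makes ATP from a proton gradient, had 6 tested subunit genes. The list also took in NO25G01360, annotated as nuclear control of ATP synthase 2, which is no subunit and was called higher at all 4 later times. Of these 7 genes, 3 rose and 1 fell at 12 h, 1 rose and 2 fell at 6 h, 2 rose and 1 fell at 24 h, and 1 rose and 2 fell at 48 h. NO25G01360 was thus the only gene of the list called higher at 6 h and at 48 h. Of all tested genes, 64.8% were called at 12 h, 50.3% at 6 h, 46.0% at 24 h and 49.3% at 48 h. Split by direction, the shares were 32.1% higher and 32.7% lower at 12 h, and 24.7% and 25.7% at 6 h. For 24 h they were 25.2% higher and 20.8% lower, and for 48 h 26.3% and 23.0%. The count of 24 h was 1 without 0 h replicate a, 0 h replicate b or 24 h replicate b, and also with the replicate letter as a block. The faller at 12 h was the gamma chain of the chloroplast enzyme (NO23G00520), with 762 ± 47.7 CPM at 12 h and 1615 ± 35.3 CPM at 0 h (-1.08 ± 0.05, edgeR adjusted p = 7.3e-09). The highest riser was the mitochondrial epsilon subunit (NO01G00920), at 0.47 ± 0.15 (edgeR adjusted p = 0.016), a call lost without 0 h replicate a (adjusted p = 0.057), 12 h replicate b (0.071) or 12 h replicate c (0.054). With 1 library left out, the list had 2 to 4 calls at 12 h, so at the lowest count another call was lost as well.

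Of the 15 other P-type ATPases, which move calcium, copper and other cations, 3 rose and 4 fell at 12 h (median log2 fold change -0.31), where 32.1% of tested genes rose and 32.7% fell. A calcium-transporting ATPase of the plasma membrane type (NO01G05560) rose to 406 ± 25.7 CPM at 12 h, against 123 ± 4.18 CPM at 0 h (1.72 ± 0.10, edgeR adjusted p = 2.0e-08). One of the endoplasmic reticulum type (NO11G00410) fell to 135 ± 19.9 CPM, against 421 ± 31.8 CPM at 0 h (-1.64 ± 0.10, edgeR adjusted p = 2.8e-08). Both are the extremes of the list, and each type held means going the other way. The scarce NO09G03830, of the plasma membrane type, averaged 4.32 ± 0.575 CPM at 12 h and 8.15 ± 1.40 CPM at 0 h. NO16G02820, of the endoplasmic reticulum type, averaged 101 ± 23.6 CPM at 12 h and 44.0 ± 15.2 CPM at 0 h. Of the 15, 2 rose and 4 fell at 6 h, 3 rose and 5 fell at 24 h, and 5 rose and 3 fell at 48 h, beside 50.3%, 46.0% and 49.3% of tested genes called in either direction. Split by direction, these shares were 24.7% higher and 25.7% lower at 6 h. For 24 h they were 25.2% higher and 20.8% lower, and for 48 h 26.3% and 23.0%.

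Proton-coupled cation exchangers spend a proton gradient to move sodium, potassium or calcium. Of 15 tested, 3 rose and 8 fell at 12 h (median -0.33), 2 rose and 7 fell at 6 h, 4 rose and 1 fell at 24 h, and 4 rose and 4 fell at 48 h. The shares of tested genes called in either direction were 64.8% at 12 h, 50.3% at 6 h, 46.0% at 24 h and 49.3% at 48 h. Split by direction, they were 32.1% higher and 32.7% lower at 12 h, and 24.7% and 25.7% at 6 h. For 24 h they were 25.2% higher and 20.8% lower, and for 48 h 26.3% and 23.0%. With only the 6 libraries compared, 10 exchangers were called at 24 h. The highest fitted value at 12 h, that of cation/H+ antiporter 18 (NO25G02020), rested on replicate b, with 2.24, 61.4 and 2.50 CPM at 12 h, against 1.28, 0.947 and 1.93 CPM at 0 h. Without 12 h replicate b its log2 fold change was 0.76 in place of 3.98 (edgeR adjusted p = 0.44 in place of 0.016), and the call was also lost without 0 h replicate a (0.051) or b (0.056). At 48 h its 3 libraries, 58.9, 63.0 and 55.9 CPM, all lay above those of 0 h (5.40 ± 1.35, edgeR adjusted p = 0.0055). The gene with the lowest value, NO19G00470 of the same name, was scarce, with 0.857 ± 0.473 CPM at 12 h and 2.54 ± 0.303 CPM at 0 h (edgeR adjusted p = 0.0064).

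In plants, 14-3-3 proteins bind the phosphorylated tail of the plasma membrane proton ATPase and hold it in its active state. The only such gene in the table, NO02G02660, had 635, 689 and 642 CPM at 12 h, against 304, 327 and 295 CPM at 0 h (log2 fold change 1.09 ± 0.06, edgeR adjusted p = 2.2e-08). It was also called higher at 6 h (0.88 ± 0.06, edgeR adjusted p = 3.8e-07), 24 h (0.71 ± 0.06, edgeR adjusted p = 3.1e-06) and 48 h (0.36 ± 0.06, edgeR adjusted p = 0.00044).

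**Figure D5:**
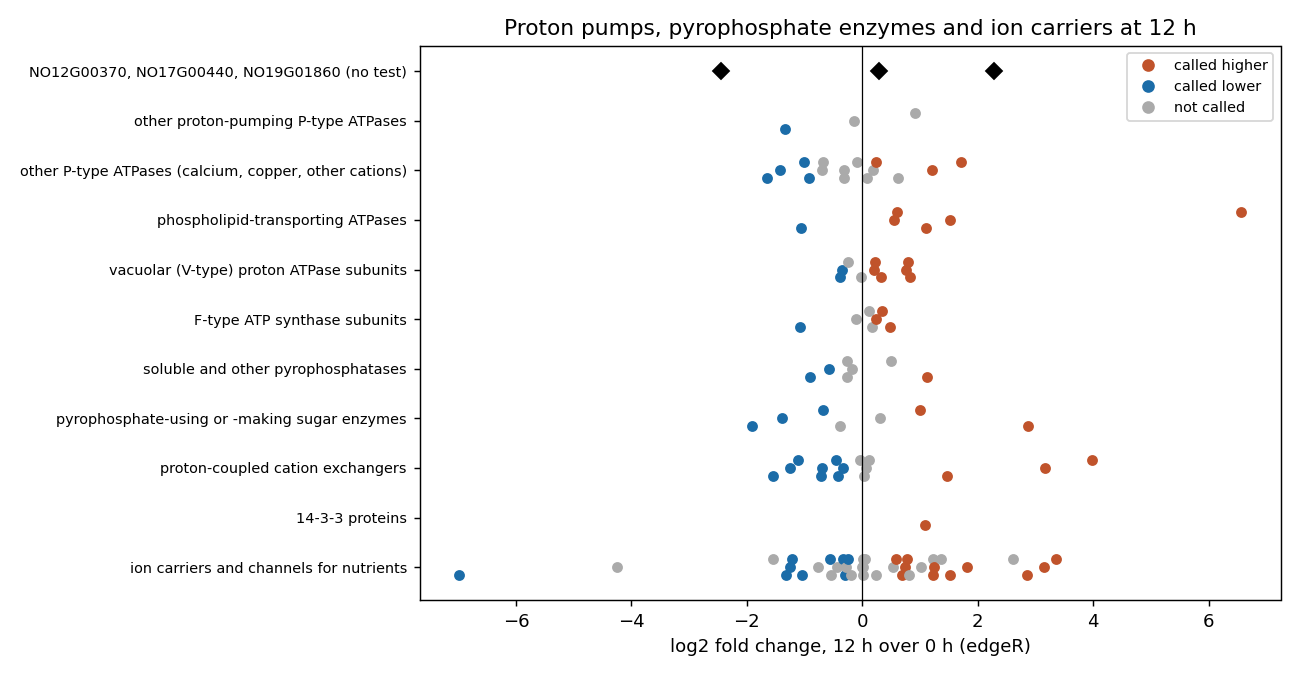
Log2 fold change of 12 h over 0 h (horizontal axis, edgeR; the F-type row includes NO25G01360, which is no subunit) for the 3 genes (diamonds, no test, from left to right NO12G00370 at -2.45, NO17G00440 at 0.29 and NO19G01860 at 2.28) and for each tested gene of 10 annotation lists (rows; offsets within a row only separate the points); colours give the edgeR call at an adjusted p of 0.05. The leftmost and rightmost points are scarce genes: NO16G02030, at 0 counts in all 3 libraries of 12 h, so that its fitted position is no bound, and NO04G03120, whose position rests on 12 h replicate a.

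The genes whose log2 CPM over the 15 libraries was most like that of NO12G00370 were found among 7555 genes with a description and a mean log2 CPM of at least 3. They were a CDK5RAP1-like protein (NO05G01950, Pearson 0.993), a myo-inositol 2-dehydrogenase-like oxidoreductase (NO26G00650, 0.989), boron transporter 3 (NO08G01230, 0.988), an uncharacterised protein (NO13G02200, 0.988) and chloroplast fructose-1,6-bisphosphatase of the Calvin cycle (NO10G02230, 0.986). As an example, NO08G01230 averaged 354 ± 2.90 CPM at 0 h, 180 ± 28.1 at 6 h, 81.1 ± 8.07 at 12 h, 225 ± 9.30 at 24 h and 211 ± 18.3 CPM at 48 h (SD, n = 3 each). The most opposite were an ADP-ribosylation factor (NO08G03280, -0.991), a GTPase of vesicle traffic, then caltractin (NO08G02210, -0.988) and an uncharacterised protein (NO06G04420, -0.986). The pattern was common: 5.37% of the genes searched had a correlation of at least 0.9 with NO12G00370.

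For NO19G01860 the closest genes were an uncharacterised protein (NO06G02220, 0.993), the vesicle coat protein Sec24 (NO12G03950, 0.992), protein disulfide-isomerase 5-4 (NO13G01760, 0.992), a rhamnose synthesis enzyme (NO04G04480, 0.992) and the dynamin-like protein ARC5 (NO05G02360, 0.990). Sec24 (NO12G03950) averaged 61.6 ± 0.841 CPM at 0 h, 148 ± 20.7 at 6 h, 251 ± 9.34 at 12 h, 103 ± 1.60 at 24 h and 95.8 ± 5.27 CPM at 48 h (SD, n = 3 each). The most opposite were NO26G00650 (-0.991), which is also among the genes closest to NO12G00370, prolyl 3,4-dihydroxylase (NO01G04210, -0.991) and cytosolic fructose-1,6-bisphosphatase of gluconeogenesis (NO15G01120, -0.990). Here 5.64% of the genes reached a correlation of 0.9.

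The course of NO17G00440 had fewer counterparts at this threshold, with 0.291% of the genes at a correlation of 0.9 or above. Its levels ranged less over the times than those of NO12G00370 and NO19G01860. A smaller range can itself lower correlations, so a rarer course is not shown. The closest were nucleolar complex protein 3 (NO02G04420, 0.970), an organellar leucine-tRNA ligase (NO08G02190, 0.963), a calcium-transporting ATPase of the endoplasmic reticulum type (NO20G01420, 0.955), vacuolar cation/proton exchanger 4 (NO10G03820, 0.954) and a RAP domain protein (NO02G04470, 0.947). NO20G01420 and NO10G03820 belong to the lists of P-type ATPases and of proton-coupled exchangers described above. NO20G01420 averaged 425 ± 14.1 CPM at 24 h and 275 ± 8.88 CPM at 0 h, and NO10G03820 averaged 116 ± 2.37 CPM at 24 h and 84.8 ± 2.13 CPM at 0 h (SD, n = 3 each). Since these genes were picked for their likeness, no test is given. The most opposite genes were a steroid-binding protein (NO03G01860, -0.962), an HNH endonuclease (NO03G05640, -0.939) and an uncharacterised protein (NO01G03300, -0.936).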

How the data were processed

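RNA-seq of 15 libraries (5 times, 3 each) was used as deposited by the authors. The authors deposited, per the file headers, an estimated count for each gene and library, whole and not scaled to depth, together with the FPKM. The submitters' processing notes name HISAT2; the counter, genome build and annotation have no entry in the labels or headers, so no positions or sequences are printed, and 0 of the 160 genes of the reference table matched.

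In R 4.3.3, edgeR 4.0.16 (filterByExpr, TMM, quasi-likelihood F-test on 5 time groups) left 9321 genes and removed 1113. Benjamini-Hochberg adjustment ran over these at 0.05, two-sided. Standard errors were derived from the F statistic, as |log2 fold change| over its square root. Log2 CPM used a prior count of 2. A floor of 3 counts corresponds to 0.105 to 0.187 CPM, counting error only. The steps were tested on simulated data. Figures used Python 3.11.15, pandas 2.3.3 and matplotlib 3.10.9.

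The 3 genes and 10 lists (113 genes, matched by words in the descriptions) were chosen with earlier results of these data known. Lists of 5 or fewer tested genes are named in full, others by the highest and lowest called gene at 12 h. For likeness, the 5 highest and 3 lowest Pearson correlations were named. Alternatives were other scalings, DESeq2 1.42.0, other filters, FPKM (log2 of FPKM + 1), 6 libraries only, the replicate letter as a block and each library left out. After removal of the time means, libraries with the same letter correlated at -0.088 to 0.0768 (0 of 30 pairs above 0.1), so the letter is not used as pairing. Chi-square per degree of freedom between libraries of a time was 53.5 to 122, so none was a copy.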

Additional observations from a re-analysis of the deposited data

How the results depend on the processing

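The 12 log2 fold changes of NO12G00370, NO17G00440 and NO19G01860 against 0 h kept their sign under all alternatives run. That of NO17G00440 at 6 h was 0.021 to 0.274, with libraries overlapping those of 0 h, so nothing is read from its sign. The called values of the named genes also kept their sign, and lost their call in 40 cases. With NO12G00380 and NO12G00390 summed, values not called for either gene alone gained a call in 6 cases. With 1 library left out, the 12 h value was -2.582 to -2.372 for NO12G00370 and 2.246 to 2.316 for NO19G01860. The 24 h value of NO17G00440 was 1.314 to 1.452. All 12 values stayed within the spread between replicates. Leaving out 1 of 3 libraries can hardly move a mean further than that spread, so nothing is read from this. Upper-quartile scaling gave 2.215 for NO19G01860 at 12 h. Deposited FPKM gave -1.091 and -0.827 for NO12G00370 at 6 h and 48 h, 0.274 and 0.818 for NO17G00440 at 6 h and 48 h, and 2.212 for NO19G01860 at 12 h. NO12G00370 summed with NO12G00380 and NO12G00390 gave -1.192, -2.088, -0.47 and -0.351 at 6, 12, 24 and 48 h. NO12G00390 alone had 0.91 at 12 h and, summed with NO12G00380, -0.961. Counts over all genes stayed within 1.5 times under every alternative.

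Counts of called genes in small lists moved. Under the replicate block the lipid-transporting ATPases had 2 at 6 h and the F-type genes 1 at 24 h. Among the 6 libraries compared, the other proton ATPases had 1 at 6 h and 2 at 24 h, the pyrophosphatases 2 and 2, the sugar enzymes 3 at 6 h and the exchangers 10 at 24 h. DESeq2 gave 1 for the other proton ATPases at 6 h. With 1 library left out, the ranges were 1 to 2 for lipid-transporting ATPases, 3 to 4 for V-type genes and 3 to 5 for sugar enzymes at 6 h, 2 to 4 for F-type genes at 12 h, 1 to 2 for F-type genes and 0 to 1 for pyrophosphatases at 24 h, and 1 to 3 for pyrophosphatases and 0 to 2 for the other proton ATPases at 48 h. Of the 5 genes most like NO12G00370, NO17G00440 and NO19G01860, 1, 2 and 1 stayed among the 5 with Spearman in place of Pearson. The causes were not tested.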

Other observations

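Phospholipid-transporting ATPases, P-type pumps that move lipids rather than ions between the leaflets of a membrane, had 6 tested genes. Against 0 h, the edgeR test called 3 higher and 1 lower at 6 h, 5 higher and 1 lower at 12 h (median log2 fold change 0.86), 2 higher and 1 lower at 24 h, and 3 higher and 1 lower at 48 h. Of all tested genes, 50.3% were called at 6 h, 64.8% at 12 h, 46.0% at 24 h and 49.3% at 48 h, in either direction. Split by direction, the shares were 24.7% higher and 25.7% lower at 6 h, and 32.1% and 32.7% at 12 h. For 24 h they were 25.2% higher and 20.8% lower, and for 48 h 26.3% and 23.0%. The 6 h count was 1 to 2 in each of the 6 fits without 1 library of 0 h or 6 h, and 2 with the replicate letter as a block. The highest fitted value, that of NO04G03120, rested on 1 library, with 38.5, 0.230 and 0.250 CPM at 12 h, against 0.117, 0.150 and 0.126 CPM at 0 h. Without 12 h replicate a its log2 fold change was 0.83 in place of 6.57 (edgeR adjusted p = 0.52 in place of 0.0096). NO08G02790 was the faller, with 59.7 ± 3.30 CPM at 12 h and 124 ± 13.9 CPM at 0 h (-1.06 ± 0.12, edgeR adjusted p = 7.2e-06).

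The list of ion carriers and channels for nutrients had 39 tested genes. NO16G00820 among them is annotated as potassium channel modulatory factor 1, neither carrier nor channel, and was called higher at all 4 later times. The list also took in NO02G02530, annotated as a potassium channel subunit beta, and the glycerol-3-phosphate transporters NO02G00730 and NO05G03350. Among the 39, 11 rose and 7 fell at 6 h against 0 h, 11 rose and 9 fell at 12 h (median 0.02), 13 rose and 4 fell at 24 h, and 13 rose and 5 fell at 48 h, where 50.3%, 64.8%, 46.0% and 49.3% of tested genes were called. Split by direction, the shares were 24.7% higher and 25.7% lower at 6 h, and 32.1% and 32.7% at 12 h. For 24 h they were 25.2% higher and 20.8% lower, and for 48 h 26.3% and 23.0%. The highest called value at 12 h was that of sulfate transporter 3.5 (NO17G02590), with 560 ± 6.37 CPM at 12 h and 54.9 ± 4.78 CPM at 0 h (3.35 ± 0.17, edgeR adjusted p = 8.6e-09). The lowest was that of phosphate transporter 1-13 (NO16G02030), which had 0 counts in all 3 libraries of 12 h, against 31, 5 and 8 counts at 0 h.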
